A study of Mus musculus with 8 samples.

Results

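Pyruvate dehydrogenase is the mitochondrial enzyme complex that commits pyruvate to acetyl-CoA. The genes described here are the 4 kinases that switch it off (Pdk1, Pdk2, Pdk3 and Pdk4), the 2 phosphatases that switch it back on (Pdp1 and Pdp2) and the subunits Pdha1, Pdhb and Dlat. All probe sets that the platform annotation assigned to 1 of these 9 genes alone were taken. They came to 17 of the 45101 probe sets in the table, and to 9 of the 18193 genes that 34945 probe sets name alone. Pdk1 was read by 4 probe sets, Dlat by 3, Pdp1, Pdha1 and Pdhb by 2 each, and the others by 1.

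The arrays came from subcutaneous fat of male mice, diabetic per the title of the series. In the NBC group 4 mice, numbered 5, 9, 11 and 13, had been gavaged with niacin-bound chromium (NBC), a complex of chromium with nicotinic acid, in water at 10 mg per kg body weight. The other 4, numbered 6, 8, 10 and 14, had been given water as placebo. Both groups were treated for 10 weeks on 5 days a week, the labels give 8 weeks as the age of the mice, and no strain, allele or diet is given in the sources used here. Each mouse gave 1 Affymetrix Mouse Genome 430 2.0 array of total RNA, with 1 linear MAS5 signal per probe set and no pooling named in the labels.

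In the complex, the E1 component (Pdha1 and Pdhb) decarboxylates pyruvate, the E2 component (Dlat) passes the acetyl group to coenzyme A, and the E3 component (Dld) re-oxidises the lipoyl arms of E2. Kinases phosphorylate the alpha subunit of E1 and stop the reaction, and phosphatases restore it. In adipocytes insulin favours the active form, which feeds acetyl-CoA into fatty acid synthesis, while Pdk4 transcription is raised by fasting, fatty acids and glucocorticoids and lowered by insulin. The arrays read transcripts, so the phosphorylation of the complex was not measured.

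The arrays carried fat as labelled. The 8 measured adipocyte markers were Adipoq, Fabp4, Cidec, Lep, Lipe, Retn, Pparg and Cebpa. They summed to signals of 483826 to 546673 in NBC mice and 486352 to 580013 in placebo mice. All 8 were lower on average in NBC. Of these, Lipe separated without overlap, against 3.93% of all genes in either direction. Transcripts of fast skeletal muscle were present as well and moved with the groups. The 14 fast muscle markers summed to 166989, 19091, 176903 and 158142 in NBC mice 5, 9, 11 and 13, and to 6251 to 24864 across the placebo group, with all 14 higher on average in NBC. NBC mouse 9 thus lay within the placebo range. The ratio of the 3' to the 5' control probe set of Gapdh, which rises as RNA degrades, was 1.47 and 1.28 in NBC mice 5 and 11, against 0.84 and 1.11 in NBC mice 9 and 13 and 0.92 to 1.04 in placebo mice. The 7 macrophage markers, all 7 higher on average in NBC, summed to 103305 to 176482 across the NBC group and to 83636 to 124734 across the placebo group. The highest sum was that of NBC mouse 13 and the lowest that of placebo mouse 10. The 6 fibroblast markers, all 6 higher on average in NBC, summed to 209330 to 262117 in NBC mice and 184719 to 207308 in placebo mice, so that these sums did not overlap. The part of muscle, macrophage, fibroblast or adipocyte RNA, or of RNA quality, in the differences below was not tested.

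The comparison of NBC with placebo mice asked whether the kinases, phosphatases or subunits of the complex differed in transcript level after supplementation. By brightest probe sets the widest difference was that of Pdk4, whose mean signal in NBC mice was 0.62 times that in placebo mice. For the other 8 genes this ratio of means lay between 0.89 (Pdk2) and 1.15 (Pdk3 and Pdp2). After Benjamini-Hochberg adjustment over the 22519 probe sets that a filter on dim signals kept, limma placed no member past the threshold (adjusted p 0.778 to 0.990 for the 16 member probe sets kept). Of all probe sets tested 0 passed (0%), and 1400 had an unadjusted p under 0.05. In bulk fat, fewer cells of a type and less RNA per cell cannot be told apart.

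One of the 16 member probe sets kept, that of Pdk4, had an unadjusted p under 0.05, against 6.22% of all probe sets kept. For 16 probe sets this share is the background share. In 0 of the 16 did the groups separate without overlap, against 3.85% of all. The log2 difference (NBC minus placebo, on log2(signal + 26)) was below 0 in 12 and above 0 in 4, with 52.1% of all probe sets below 0. The median over the 16 was -0.10, beside -0.010 over all probe sets kept. The probe set of Pdk1 that lay below the filter, 1434974_at, is given apart.

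**Figure D1:**
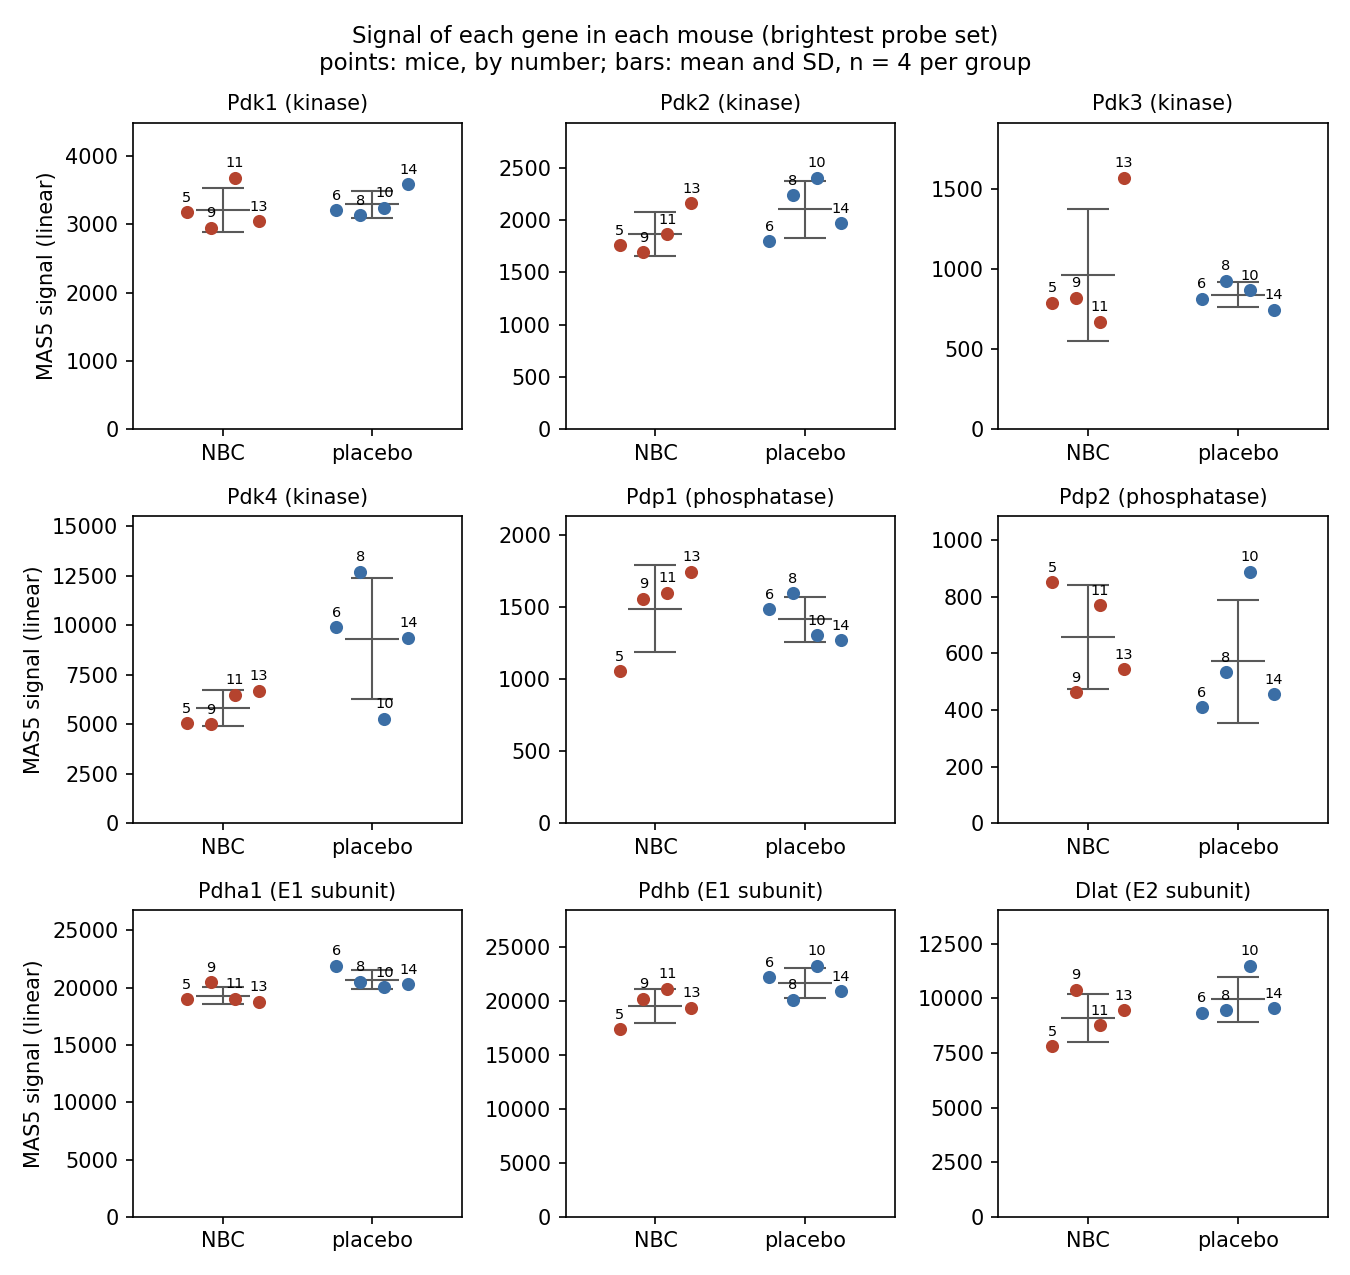
Signal of the brightest probe set of each of the 9 genes in each mouse, on a linear axis from 0, with NBC mice left and placebo mice right in each panel; points carry mouse numbers and bars give the mean and SD (n = 4 per group). Pdk4 was at most 6687 in NBC mice and at least 9378 in placebo mice 6, 8 and 14, with placebo mouse 10 at 5273.

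Pdk4, the kinase isoform that follows fasting and lipid supply, read 5046, 5000, 6493 and 6687 in NBC mice 5, 9, 11 and 13, against 9885, 12703, 5273 and 9378 in placebo mice 6, 8, 10 and 14 (probe set 1417273_at). The 4 NBC mice were low and close together. Placebo mice 6, 8 and 14 were above all of them, and placebo mouse 10 lay inside the NBC range, so the groups overlapped. The means were 5806 ± 908 in NBC and 9310 ± 3063 in placebo mice (SD, n = 4 each). The log2 difference was -0.62 with a standard error of 0.26 (95% interval -1.20 to -0.047, unadjusted p = 0.0370 and adjusted p = 0.778 in limma). Without placebo mouse 10 the difference was -0.87 (SE 0.18), and without placebo mouse 8, the highest, it was -0.45 (SE 0.25). The adjusted p over its 17 alternatives lay between 0.504 and 0.974.

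Pdk4 is also abundant in skeletal muscle and brown fat, whose markers differed between these arrays. NBC mouse 9, with muscle markers in the placebo range, had the lowest Pdk4 signal of the 8 mice. With the muscle marker score as a covariate the Pdk4 difference was -0.59 (SE 0.45, unadjusted p = 0.230 in limma). The 7 measured brown adipocyte markers, 5 of them lower on average in NBC, summed to 8395 to 12294 in NBC mice and 8844 to 15480 in placebo mice, and the lowest signal of any of them was 336. Among them the uncoupling protein Ucp1 read 796 to 2078 in NBC mice and 1408 to 4061 in placebo mice. Cidea, another of these markers, read 675 to 875 in NBC mice and 1188 to 2099 in placebo mice, without overlap. The log2 difference of Cidea was -0.996 (SE 0.18, unadjusted p = 0.000367 and adjusted p = 0.653 in limma). For Ucp1 and Cidea placebo mouse 10 was the lowest of its group, as for Pdk4. The 2 markers higher on average in NBC were Cox8b (2323 to 6244, against 2804 to 4526 in placebo mice) and Elovl3. The part of muscle or brown adipocyte RNA in the Pdk4 difference was not tested.

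**Figure D2:**
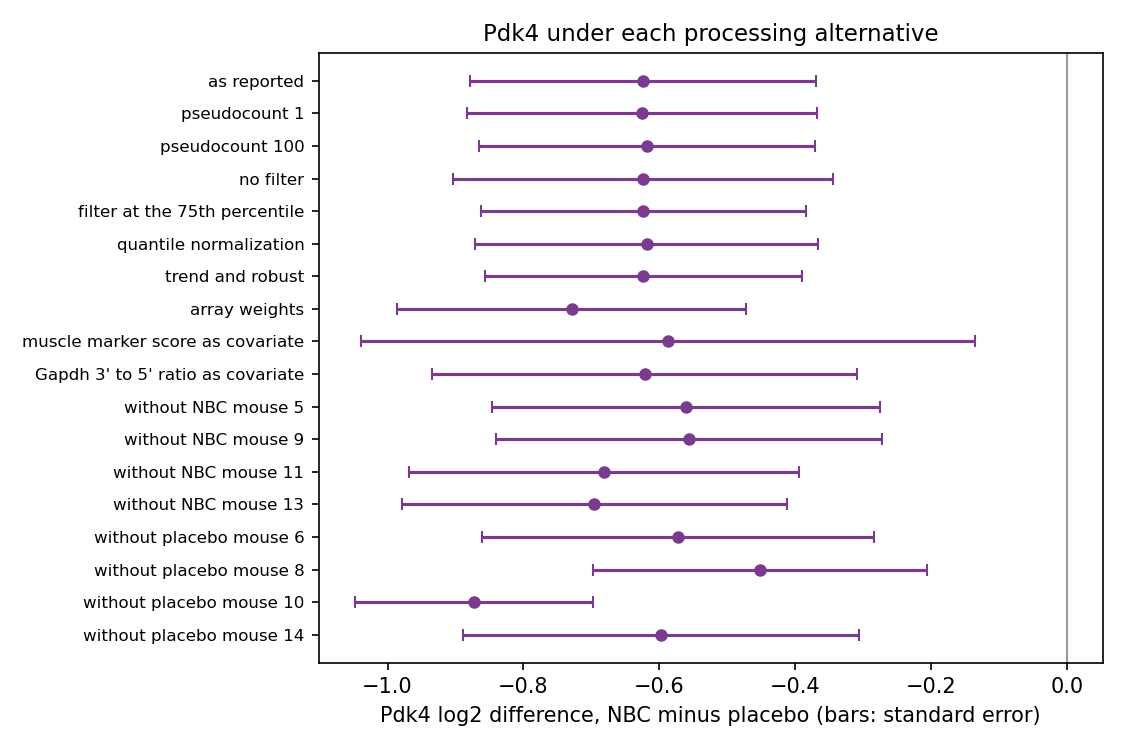
Log2 difference of Pdk4 (NBC minus placebo, horizontal axis) as reported and under 17 processing alternatives, each on a line of its own; bars are standard errors. All values lay below 0, between -0.87 without placebo mouse 10 and -0.45 without placebo mouse 8.

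Pdk1, the kinase isoform known as a target of the hypoxia factor HIF-1, had overlapping values in both groups. Its brightest probe set, 1423747_a_at, read 3176, 2952, 3680 and 3042 in NBC mice 5, 9, 11 and 13, against 3209, 3135, 3242 and 3584 in placebo mice 6, 8, 10 and 14. NBC mouse 11 was the highest and NBC mouse 9 the lowest of all 8. The log2 difference was -0.038 (SE 0.12), with a 95% interval of -0.30 to 0.22. Probe sets 1423748_at and 1435836_at gave -0.096 (SE 0.13) and -0.020 (SE 0.19). The 3 Pdk1 probe sets kept thus agreed in a small difference whose intervals covered 0. The dim probe set 1434974_at read 163, 397, 388 and 106 in NBC mice 5, 9, 11 and 13 and 114, 15.9, 212 and 242 in placebo mice 6, 8, 10 and 14. Its difference without a filter was 0.89 (SE 0.65, unadjusted p = 0.212), and the signal of 15.9 in placebo mouse 8 lay below the added constant of 26.

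Pdk2, the isoform of broad tissue range, read 1757, 1690, 1865 and 2162 in NBC mice 5, 9, 11 and 13, against 1798, 2238, 2402 and 1970 in placebo mice 6, 8, 10 and 14 (1448825_at). NBC mice 5, 9 and 11 were in the lower part of the range, and NBC mouse 13 stood above placebo mice 6 and 14. The log2 difference was -0.16 (SE 0.14, 95% interval -0.47 to 0.14), and it kept its sign in all 17 alternatives (-0.41 with the muscle marker score as a covariate to -0.099 without placebo mouse 10). Pdk3, whose gene lies on the X chromosome, read 793, 823, 672 and 1572 in NBC mice 5, 9, 11 and 13, against 817, 930, 869 and 748 in placebo mice 6, 8, 10 and 14 (1426410_at). NBC mouse 13 alone stood far above the others, and the remaining NBC mice were within or below the placebo range. The difference over all mice was 0.12 (SE 0.24), and without NBC mouse 13 it was -0.14 (SE 0.13). NBC mouse 13 also had the highest sum of macrophage markers, and the part of macrophage RNA in this value was not tested.

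The 250 bases before the annotated start of 3 genes are shown because Pdk4, the member with the widest difference, held fewer CpG dinucleotides there than the other members. They are taken from RefSeq's annotation of GRCm38.p6, on the strand of the gene, which for all 3 is the minus strand, and capitals mark CCAAT boxes in either orientation. The entries are Pdk4 at chr6:5496279-5496528, Pdk2 at chr11:95041372-95041621 and Pdhb at chr14:8172993-8173242.
Pdk4: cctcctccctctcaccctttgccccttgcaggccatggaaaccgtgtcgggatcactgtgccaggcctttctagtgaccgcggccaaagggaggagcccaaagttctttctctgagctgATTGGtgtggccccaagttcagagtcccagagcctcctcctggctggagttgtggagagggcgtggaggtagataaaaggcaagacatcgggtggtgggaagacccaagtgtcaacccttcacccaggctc
Pdk2: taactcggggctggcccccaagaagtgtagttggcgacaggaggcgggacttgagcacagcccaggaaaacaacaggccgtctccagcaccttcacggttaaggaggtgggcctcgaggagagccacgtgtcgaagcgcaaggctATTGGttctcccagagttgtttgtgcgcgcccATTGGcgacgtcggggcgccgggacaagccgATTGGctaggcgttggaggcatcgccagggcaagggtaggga
Pdhb: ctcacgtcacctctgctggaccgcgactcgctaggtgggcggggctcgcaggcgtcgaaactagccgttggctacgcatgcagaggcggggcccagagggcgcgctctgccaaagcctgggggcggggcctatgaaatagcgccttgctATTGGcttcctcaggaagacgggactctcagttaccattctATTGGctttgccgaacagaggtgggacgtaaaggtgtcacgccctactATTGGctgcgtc

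Of the 9 genes, 8 matched an entry, and the first entry was used for Pdk1 and Pdk2, which had 2 each. The Pdk4 window held 6 CpG dinucleotides, the median of the 27025 genes in the table, and the other 7 members held 11 to 29. CCAAT was found 3 times each in Pdk2 and Pdhb, 2 times in Pdp2 and 1 time each in Pdk3 and Pdk4, and in 34.5% of all windows at least once. Of the 8 motifs searched on both strands, GTAAACA (FoxO factors), AGGTCA (nuclear receptor half-site), AGAACA (glucocorticoid half-site) and TATAAA were in none of the 8 windows, against 3.09%, 13.8%, 16.2% and 13.0% of all windows. GGGCGG was in Pdk1, Pdk3, Pdp2, Pdhb and Dlat and in 32.9% of all. ACGTG, the core of hypoxia response elements, was in Pdk2, Pdk3, Pdp2 and Pdhb and in 16.6% of all, and in Pdk2 and Pdp2 it lay within the E-box CACGTG, which 6.05% of all windows held. These matches describe the letters of the windows only.

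The phosphatases differed little on average. Pdp1, the calcium-stimulated isoform, read 1055, 1557, 1598 and 1744 in NBC mice 5, 9, 11 and 13, against 1484, 1595, 1304 and 1268 in placebo mice 6, 8, 10 and 14 (1434228_at). NBC mouse 5 was the lowest of all, and the other 3 NBC mice were above placebo mice 6, 10 and 14. The log2 difference was 0.056 (SE 0.17) and that of the second probe set, 1438201_at, was -0.10 (SE 0.13), where NBC mouse 5 was again the lowest. Pdp2, the isoform that does not respond to calcium, read 852, 463, 769 and 544 in NBC mice 5, 9, 11 and 13, against 410, 534, 889 and 455 in placebo mice 6, 8, 10 and 14 (1428996_at). Its high values were in NBC mice 5 and 11 and in placebo mouse 10, so that the spread within each group exceeded the difference of 0.22 (SE 0.27). Those 3 mice had the highest muscle marker sum of the placebo group and the 2 highest of the NBC group. The Pdp2 difference turned to -0.56 (SE 0.34) with the muscle marker score as a covariate and to -0.048 (SE 0.28) with the Gapdh ratio as one. The part of muscle RNA or RNA quality in it was not tested.

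The subunits of the complex were bright, and by their brightest probe sets their means differed little. Pdha1, the alpha subunit of E1 and the target of the kinases, read 18992, 20475, 19025 and 18776 in NBC mice 5, 9, 11 and 13, against 21938, 20540, 20049 and 20308 in placebo mice 6, 8, 10 and 14 (1418560_at). NBC mice 5, 11 and 13 lay below all placebo mice, and NBC mouse 9 lay within the placebo range. The log2 difference was -0.10 (SE 0.10, 95% interval -0.33 to 0.13).

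The other Pdha1 probe set, 1449137_at, gave a different picture. It read 2066, 5550, 1976 and 4051 in NBC mice 5, 9, 11 and 13, against 4854, 5094, 3437 and 4163 in placebo mice 6, 8, 10 and 14. NBC mice 5 and 11 were low, NBC mouse 9 was the highest of all, and the difference was -0.48 (SE 0.33). Mice 5 and 11 were also those with the highest Gapdh 3' to 5' ratios, and with that ratio as a covariate the difference was -0.0052 (SE 0.23). With the muscle marker score as a covariate it was 0.46 (SE 0.41), and without NBC mouse 9 it was -0.76 (SE 0.27, adjusted p = 0.377 in limma). NBC mice 5, 11 and 13 had the highest Gapdh ratios of all mice and also the highest muscle marker scores. The part of RNA quality or muscle RNA in this difference was not tested.

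Pdhb, the beta subunit of E1, read 17420, 20230, 21160 and 19406 in NBC mice 5, 9, 11 and 13, against 22221, 20151, 23309 and 20931 in placebo mice 6, 8, 10 and 14 (1416090_at). NBC mouse 5 was the lowest, NBC mice 9 and 11 lay within the placebo range, and the log2 difference was -0.15 (SE 0.11). Its dim second probe set, 1448214_at, with signals of 332 to 502 in NBC mice and 255 to 540 in placebo mice, gave 0.17 (SE 0.24). Dlat, the acetyltransferase E2, read 7813, 10401, 8776 and 9468 in NBC mice 5, 9, 11 and 13, against 9349, 9458, 11510 and 9562 in placebo mice 6, 8, 10 and 14 (1426264_at). NBC mice 5 and 11 were below all placebo mice, and placebo mouse 10 was the highest. The 3 Dlat probe sets gave log2 differences of -0.13 (SE 0.13), -0.16 (SE 0.14) and -0.10 (SE 0.14). They went the same way and their 95% intervals covered 0. With the Gapdh ratio as a covariate 1426264_at, 1426265_x_at and 1452005_at gave -0.016, -0.030 and -0.20. With the muscle marker score as a covariate they gave -0.021, 0.019 and -0.36. The part of RNA quality or muscle RNA in the Dlat differences was not tested. Of the 7 subunit probe sets 6 lay below 0, with 52.1% of all probe sets below 0. The 7 came from 3 genes only, and 3 of them from Dlat. Counted by brightest probe sets, 6 of the 9 genes lay below 0, with 51.5% of all genes below 0.

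**Figure D3:**
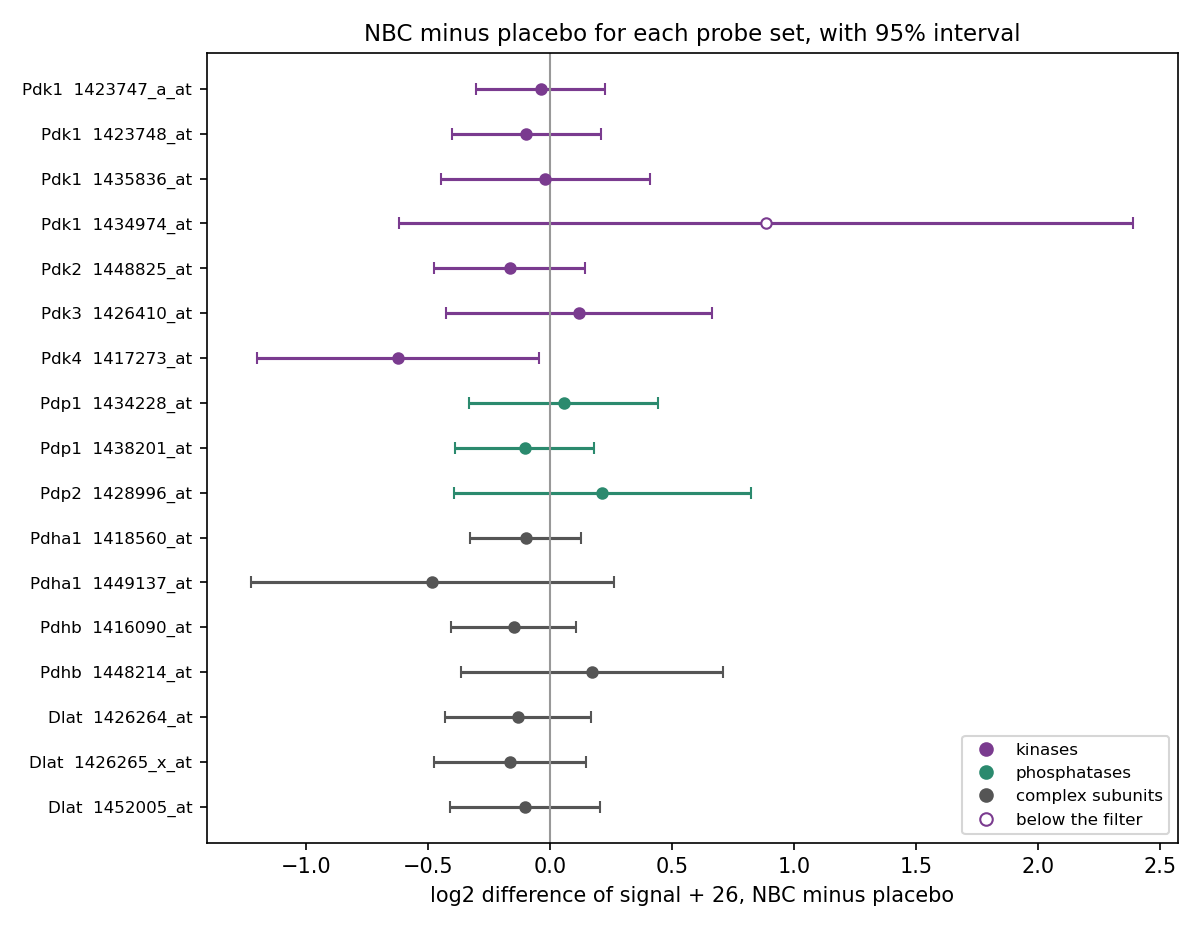
Log2 difference (NBC minus placebo, horizontal axis) of all 17 probe sets with 95% intervals from limma, one line per probe set and coloured by role; the open symbol is the Pdk1 probe set below the filter, taken from the fit without filter. The interval of Pdk4 (-1.20 to -0.047) lay below 0 and all other intervals covered it.

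Side by side and by brightest probe sets, the log2 difference was -0.62 for Pdk4 and between -0.16 (Pdk2) and 0.12 (Pdk3) for the other kinases. It was 0.056 and 0.22 for the phosphatases Pdp1 and Pdp2, and between -0.15 (Pdhb) and -0.10 (Pdha1) for the subunits. By these probe sets the 95% intervals of the subunits reached down to folds of 0.74 (Dlat) to 0.80 (Pdha1) and up to 1.08 (Pdhb) to 1.12 (Dlat). The second probe sets of Pdha1 and Pdhb had wider intervals, from 0.43 and 0.78 to 1.2 and 1.6. For Pdk3 and Pdp2 the intervals ran from 0.74 and 0.76 to 1.58 and 1.77. Differences between members were not tested.

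The genes whose profile over the 8 mice lay nearest to that of Pdk4 were Bcar1, an adaptor protein of focal adhesions, Jade3, Fam13a, 1110046J04Rik and Ap1s3, a subunit of a clathrin adaptor complex. Nearness was the mean absolute difference between log2 values, each gene centred on its own mean, among 11661 genes. It was 0.15 for Bcar1 and 0.20 for Ap1s3, beside 0.45 for the median gene and a mean deviation of Pdk4 from its own mean of 0.42. Bcar1 read 1810, 1508, 1819 and 1863 in NBC mice 5, 9, 11 and 13, against 2670, 3016, 1680 and 2269 in placebo mice 6, 8, 10 and 14. As with Pdk4, placebo mouse 10 was among the NBC values and placebo mouse 8 was the highest. Bcar1 was picked for nearness over these same 8 mice, so this likeness follows largely from the choice. The other 8 members were at distances of 0.37 (Pdha1) to 0.68 (Pdp2). Pck1 and the brown adipocyte markers Cidea and Ucp1, chosen for this after their values were seen, ranked 83, 165 and 5517. The distance of Ucp1 (0.45) was about that of the median gene. This distance also counts the size of the changes, and the log2 difference of Ucp1 was -1.39, beside -0.62 for Pdk4. Likeness in direction alone was not measured.

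**Figure D4:**
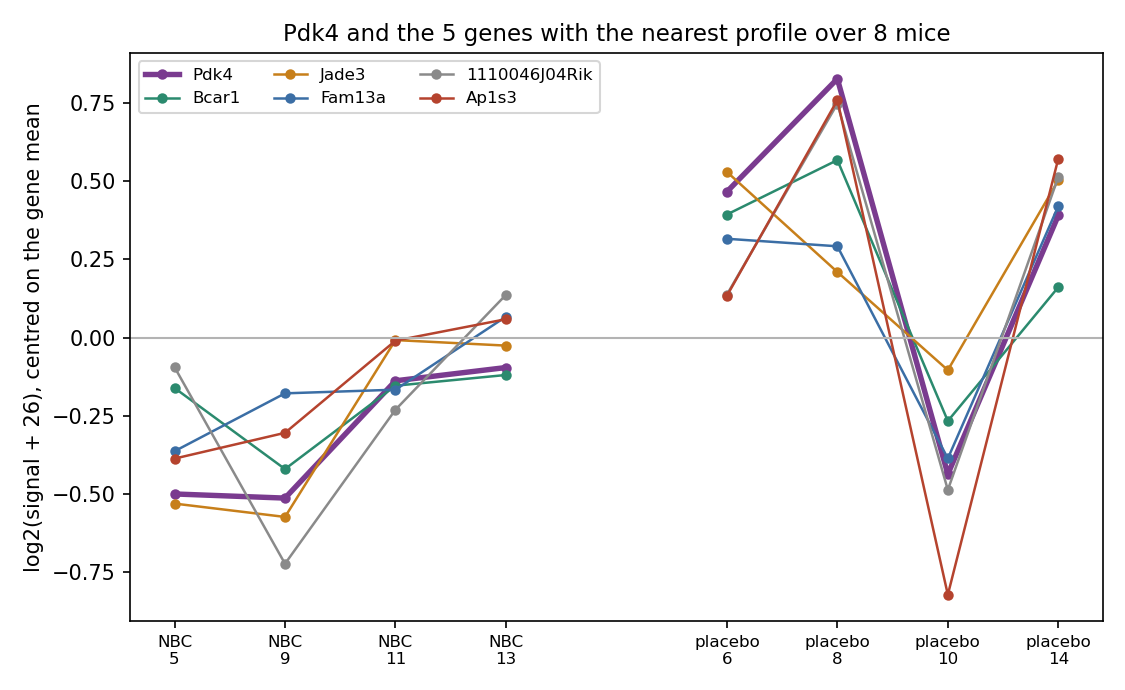
Log2(signal + 26) centred on each gene's mean (vertical axis) in the 4 NBC mice, left, and the 4 placebo mice, right, for Pdk4 and the 5 genes of nearest profile; lines only join the points of one gene and mice have no order. All 6 genes were lower in placebo mouse 10 than in the other placebo mice. The 5 were picked for nearness to Pdk4 over these same mice, so this follows largely from the choice.

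Several partners of the complex outside the 9 genes had lower means in NBC mice. In this list and those that follow, each gene was counted by its brightest probe set kept. Of these partners and activators 8 were measured by a probe set kept, 5 lay below 0 and 3 above, and the median log2 difference was -0.17, beside -0.0064 over all 11662 genes. Of the 8, 3 had an unadjusted p under 0.05, against 5.44% of all genes in either direction, and none passed after adjustment. All 3 were lower in NBC, against 2.71% of all genes lower at that p. Dld, the E3 component, read 7230, 9460, 7278 and 8270 in NBC mice 5, 9, 11 and 13, against 9459, 9467, 10134 and 10438 in placebo mice 6, 8, 10 and 14. NBC mouse 9 matched the lowest placebo mice and the other 3 were lower (log2 difference -0.30, SE 0.12, adjusted p = 0.778 in limma). Mpc1, a subunit of the mitochondrial pyruvate carrier that brings the substrate in, read 13258, 18153, 15647 and 15642 in the same NBC mice, against 17797, 20038, 20952 and 18656 in the placebo mice. NBC mouse 9 again overlapped with the placebo mice (-0.31, SE 0.13). NBC mice 5, 11 and 13, low for both Dld and Mpc1, had the highest muscle marker scores and Gapdh ratios of all mice. The part of muscle RNA or RNA quality in these differences was not tested.

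Nfu1, an iron-sulphur carrier needed to make lipoate for E2, averaged 7004 ± 350 in NBC and 8734 ± 349 in placebo mice (SD, n = 4 each), without overlap (-0.32, SE 0.10). Its other probe set kept, 1418229_s_at, gave 0.039 (SE 0.11). Pdhx, which anchors E3 to the complex, averaged 2089 ± 245 in NBC and 2443 ± 38.5 in placebo mice (SD, n = 4 each; -0.23, SE 0.12). Pdpr, the regulatory subunit of the phosphatase, gave 0.23 (SE 0.21), while its other 2 probe sets gave 0.0039 and -0.18.

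The list of related 2-oxoacid dehydrogenases, enzymes that share E3 with the complex, also held the kinase Bckdk and the phosphatase Ppm1k. Of its 8 genes 7 lay below 0, all but Ppm1k (0.074), with a median of -0.073. Among them 0 had an unadjusted p under 0.05, against 5.44% of all genes. Dlst, the E2 of 2-oxoglutarate dehydrogenase, read 7924 to 9064 in NBC mice and 9336 to 10508 in placebo mice, without overlap (-0.22, SE 0.10), as did 3.93% of all genes. Its other 2 probe sets kept gave -0.21 and 0.091. Bckdhb, the E1 beta subunit for branched-chain acids, gave -0.27 (SE 0.15).

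Genes around pyruvate and acetyl-CoA were spread on both sides of 0. Of 11 measured genes of pyruvate supply and use 6 lay below 0 (median -0.00069), and none had an unadjusted p under 0.05. The nearest were the malic enzyme Me2 (-0.30, SE 0.13) and the monocarboxylate transporter Slc16a1 (0.23, SE 0.21). The other 2 Me2 probe sets kept went the other way, with 0.14 (SE 0.24) and 0.050 (SE 0.17). Of 9 genes of acetyl-CoA export and use 5 lay below 0 (median -0.12). Among these the carnitine acetyltransferase Crat, which buffers mitochondrial acetyl-CoA, averaged 6703 ± 416 in NBC and 8458 ± 1130 in placebo mice (SD, n = 4 each; -0.33, SE 0.13, unadjusted p = 0.0339 and adjusted p = 0.778 in limma). The other 2 Crat probe sets kept gave -0.026 (SE 0.16) and -0.25 (SE 0.29).

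By brightest probe sets, known regulators of Pdk4 transcription were 11 of 13 below 0, with a median of -0.11 and no unadjusted p under 0.05. Over all genes 51.5% lay below 0. The coactivator Ppargc1a read 336, 365, 344 and 506 in NBC mice 5, 9, 11 and 13, against 640, 408, 448 and 507 in placebo mice 6, 8, 10 and 14 (-0.35, SE 0.18). NBC mouse 13 lay among the placebo mice and the other 3 lay below them. Foxo3 lay above 0 (0.35, SE 0.17), with 0.042 (SE 0.18) for its second probe set. Ppara gave -0.16 (SE 0.23) and, by its second probe set, -0.50 (SE 0.22). Foxo1 gave -0.11 (SE 0.19) by its brightest probe set. Of the other Foxo1 probe sets kept, 1416982_at gave -0.43 (SE 0.17, unadjusted p = 0.0357 and adjusted p = 0.778 in limma). Its groups did not overlap, against 3.85% of all probe sets kept. The remaining Foxo1 probe set gave -0.095 (SE 0.23).

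Among the 14 measured genes that respond to PPAR or FoxO factors 12 lay below 0 (median -0.11). Pck1, the phosphoenolpyruvate carboxykinase that fat uses to make glycerol phosphate from pyruvate, was the one of the 14 with an unadjusted p under 0.05, against 5.44% of all genes. It read 10708, 11759, 7289 and 8626 in NBC mice 5, 9, 11 and 13, against 17035, 22170, 11553 and 16686 in placebo mice 6, 8, 10 and 14. Placebo mouse 10 was the lowest of its group, just under NBC mouse 9, and for Pdk4 too it lay inside the NBC range. The log2 difference was -0.80 (SE 0.22, unadjusted p = 0.00593 and adjusted p = 0.718 in limma), and the second Pck1 probe set gave -1.04 (SE 0.41). Angptl4, a lipase inhibitor that the same factors induce, gave -0.098 (SE 0.14), beside -0.62 for Pdk4. Of 12 measured genes responsive to HIF-1, 9 lay below 0 (median -0.070) and none had an unadjusted p under 0.05. The smallest p there belonged to P4ha1 (-0.18, SE 0.15, and -0.60, SE 0.33, by its second probe set) and Hk2 (-0.14, SE 0.12), beside -0.038 for Pdk1.

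**Figure D5:**
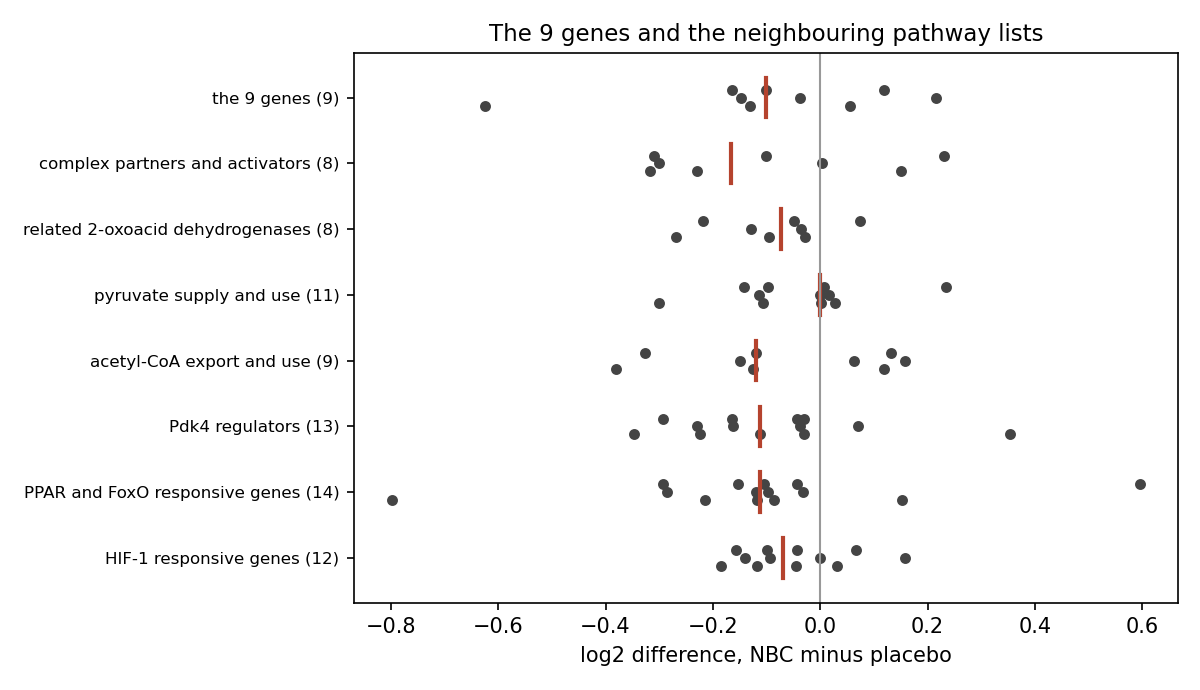
Log2 difference (NBC minus placebo, horizontal axis) of each measured gene by its brightest probe set, for the 9 genes and 7 neighbouring lists, with the number of genes in brackets; red bars mark list medians. Medians lay between -0.17 for partners and activators and -0.00069 for pyruvate supply and use.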

How the data were processed

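Per the labels, total RNA of subcutaneous fat from 4 NBC and 4 placebo mice was hybridised, 1 array per mouse. The deposited values are signal intensities on a linear scale, made by the authors with MAS5 per the submitters' processing notes (no version given). Each array had a mean trimmed by 2% at each end of about 1500, so they were not rescaled. Groups and mouse numbers came from the sample titles, no number occurs in both groups, and no batch is given in the sources used here.

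GEO's platform annotation gave the gene names. Signals were transformed as log2(signal + 26), 26 being the 10th percentile of all values, which understates differences of dim probe sets. After 64 control probe sets were removed, the 22519 probe sets with a mean log2 value at or above the median (a signal of 275) were tested with limma 3.58.1 in R 4.3.3 (lmFit and eBayes, no covariate), with Benjamini-Hochberg adjustment over all of them and a threshold of 0.05. A gene was represented by its brightest probe set kept (11662 genes). The fit was checked on simulated arrays. P-values set the difference between the groups against the spread among mice within groups, which limma moderates over all probe sets tested. They cover these 8 mice, and the number of arrays limits the precision.

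The 9 members and the lists were chosen with earlier results of these data known. The text names all members and, of each list, genes with an unadjusted p under 0.05 or else the 2 with the smallest p, plus Pdhx, Dld, Pdpr, Mpc1, Angptl4, Ppara, Ppargc1a and Foxo1. The marker lists were summed as signals. Slow muscle, endothelial and skin epithelial markers, listed too, had medians of 0.069, -0.050 and -0.16 (2, 6 and 2 measured genes), and fibroblast markers 0.19 (6 genes). The median of the adipocyte markers was -0.080 (8 genes). Alternatives were another pseudocount, filter, normalization, variance model or array weighting, a muscle score or the Gapdh ratio as a covariate, the mean of all probe sets of a gene, and 1 mouse left out.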

Additional observations from a re-analysis of the deposited data

Results flagged for a closer look

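Of 70 groups of 4 mice examined (17 member probe sets and the list genes named, in each group), 5 held a mouse far from the other 3 relative to the range of its group. Chance gives about 1 in 20. Pdk3 read 1572 in NBC mouse 13, against 672 to 823 in the other NBC mice. Pdp1 (1438201_at) read 1116.5 in NBC mouse 5, against 1358 to 1394 in the others. Pdha1 (1418560_at) read 20475 in NBC mouse 9, against 18776 to 19025 in the others, and Dlat (1426264_at) read 11510 in placebo mouse 10, against 9349 to 9562. Ppargc1a read 506 in NBC mouse 13, against 336 to 365 in the other NBC mice.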

How the results depend on the processing

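Over all 22519 probe sets 0 passed the adjusted threshold, and with 1 mouse left out the count ranged from 0 to 19, the highest being without NBC mouse 9. In the other 16 alternatives it was 0. None of 273 member values under the alternatives passed, and 254 kept their sign. Pdk4, Pdk2, Dlat 1426264_at and 1452005_at and Pdp1 1438201_at kept it throughout, as did Pdk1 1434974_at, which was computed without a filter only. With the muscle marker score as a covariate the sign turned for Pdk1 1423748_at (0.059), Pdk3 (-0.060), Pdp2 (-0.56), Pdha1 1418560_at (0.0023), Pdha1 1449137_at (0.46) and Dlat 1426265_x_at (0.019). With the Gapdh ratio it turned for Pdk1 1423748_at (0.012) and Pdp2 (-0.048), and with the mean of all probe sets for Pdk1 (0.18), Pdp1 (-0.024) and Pdhb (0.012). With 1 mouse left out the sign turned for Pdk1 1423747_a_at (-0.10 to 0.0027), Pdk1 1435836_at (-0.16 to 0.091), Pdk3 (-0.14 to 0.26), Pdp1 1434228_at (-0.027 to 0.21) and Pdhb 1448214_at (-0.017 to 0.32). The cause was not tested. The unadjusted p of Pdk4 was under 0.05 in 9 of 17 alternatives. No paired analysis was possible because no mouse number occurs in both groups. Signals near 26 or below limit dim probe sets such as Pdk1 1434974_at.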

Other observations

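Placebo mouse 10 stood apart from the other placebo mice in several of the genes named above, in both directions. It was the lowest placebo mouse for Pdk4 (5273), Pck1 (11553) and Ucp1 (1408, against 3754 to 4061 in placebo mice 6, 8 and 14). It was the highest for Pdp2 (889), Dlat 1426264_at (11510), Ppara 1439675_at (875) and Slc16a1 (13890). By the second Ppara probe set, 1457721_at, placebo mouse 14 was higher (633, against 607 in placebo mouse 10). Its sum of fast muscle markers (24864) was the highest of the placebo group and its sum of macrophage markers (83636) the lowest of all 8 mice.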
